A study of Rattus norvegicus with 8 samples.

Results

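The core circadian clock was examined in the right Achilles tendon of male Sprague-Dawley (SD) rats, 8 to 10 weeks old, through 10 genes taken by symbol from the deposited annotation: *Arntl*, *Clock*, *Npas2*, *Per1*, *Per2*, *Per3*, *Cry1*, *Cry2*, *Nr1d1*, and *Nr1d2*. All 10 were found among the 32883 annotated genes, and all 10 had enough reads to be among the 13937 genes tested. Polyadenylated RNA of 8 wild-type rats was sequenced as 1 library per rat, 4 from rats that ran on a treadmill for 1 hour and were killed after 12 hours of rest (12 hours p.r.) and 4 from caged naïve control rats (NC) killed at the same time as the runners. The running rats had been kept moving by airflow and, when they stepped off the belt, a mild electric stimulus, whereas the NC rats stayed in their cages, so running and the treadmill procedure cannot be told apart. The animals lived under 12 hours of light and 12 hours of dark, and the hour of killing within that cycle was not given in the sources used here.

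The molecular clock is a loop of transcription and translation that runs in nearly every cell, tenocytes included. BMAL1, the product of *Arntl*, pairs with CLOCK or its relative NPAS2 and switches on the Period and Cryptochrome genes through E-box sequences, and the PER and CRY proteins return to the nucleus and block the pair. A second loop runs through the nuclear receptors REV-ERBα and REV-ERBβ, the products of *Nr1d1* and *Nr1d2*, which repress *Arntl* at elements that the ROR receptors use to activate it. In tendon, as in other tissues, *Arntl* and the Period genes peak at opposite times of day, and a clock sampled at a single hour gives each gene at 1 point of its cycle.

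The promoters of 3 members are shown because they alone among the members with a promoter held a match to any of the motifs searched, each to a different motif. They run from 250 bases before to 50 bases after a RefSeq transcription start in build GRCr8, a later assembly than the Rnor_6.0 genome of the counts. Capitals mark the matches to the motifs searched on both strands, the E-box CACGTG, the ROR and REV-ERB element TNGGTCA, and the D-box TTANGTAA, and none of these matches overlapped another. Forms of these elements with other letters were not searched, so a window may hold elements left in lower case. RefSeq lists *Arntl* as *Bmal1*.
Arntl, chr1:176766078-176766377, + strand: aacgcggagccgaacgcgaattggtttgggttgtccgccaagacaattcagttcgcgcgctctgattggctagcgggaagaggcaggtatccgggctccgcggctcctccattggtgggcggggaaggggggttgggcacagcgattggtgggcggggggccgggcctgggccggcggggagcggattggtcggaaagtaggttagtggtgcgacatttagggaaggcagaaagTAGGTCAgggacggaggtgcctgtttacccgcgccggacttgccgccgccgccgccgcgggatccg
Per2, chr9:99496944-99497243, - strand: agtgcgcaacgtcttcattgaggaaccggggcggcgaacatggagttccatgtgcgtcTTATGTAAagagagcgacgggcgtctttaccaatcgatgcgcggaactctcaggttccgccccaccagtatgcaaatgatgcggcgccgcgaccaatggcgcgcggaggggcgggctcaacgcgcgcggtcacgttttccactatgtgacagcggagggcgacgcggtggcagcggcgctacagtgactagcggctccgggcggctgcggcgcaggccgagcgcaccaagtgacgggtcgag
Nr1d1, the second of 2 starts, chr10:84229405-84229704, - strand: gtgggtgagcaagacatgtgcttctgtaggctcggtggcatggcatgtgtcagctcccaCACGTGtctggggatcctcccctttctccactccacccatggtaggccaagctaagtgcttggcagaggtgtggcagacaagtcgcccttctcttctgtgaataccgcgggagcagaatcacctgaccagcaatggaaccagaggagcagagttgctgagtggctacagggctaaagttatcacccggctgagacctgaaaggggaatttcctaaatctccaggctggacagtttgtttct
The *Arntl* window holds TAGGTCA beginning 16 bases before the start, the *Per2* window a D-box TTATGTAA beginning 192 bases before it, and the *Nr1d1* window an E-box beginning 191 bases before it. Of the 10 members, 9 had a promoter in the table, 11 in all since *Clock* and *Nr1d1* have 2 each, and these were the only 3 matches in them. Over all 33469 promoters of the same length, 6.42% held the E-box, 11.1% the ROR and REV-ERB element, and 2.24% the D-box. *Cry1* has no entry in the promoter table.

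The reads counted on genes ran from 7350509 to 10648648 in the 12 hours p.r. rats and from 8385779 to 12951397 in the NC rats. Expression within a gene is given as CPM, the read count adjusted for sequencing depth that edgeR computes with its TMM factors (trimmed mean of M values between libraries). The tissue carried its tenocyte markers in every rat, with *Tnmd* between 224 and 392 CPM and *Scx* between 20.3 and 60.6 CPM. Some rats stood apart in RNA of neighboring tissues: the summed skeletal muscle markers reached 59957 CPM in 12 hours p.r. replicate 3, where the other 7 held 2437 to 11369 CPM, and the summed cartilage and bone markers reached 2943 CPM in NC replicate 3 and 1294 CPM in 12 hours p.r. replicate 1, against 111 to 761 CPM in the others. Results are therefore also given without these 3 rats. The muscle markers *Myh7* and *Mb* were instead highest in NC rats, at up to 757 and 773 CPM. In the running rats they reached 529 and 339 CPM. In a bulk sample, fewer cells of a type and less RNA per cell cannot be told apart.

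At 12 hours p.r., several core clock genes lay apart from the NC group, although none of the 10 passed the correction over all genes with edgeR. *Per2* and *Cry1* were lower in every running rat than in every NC rat, and *Arntl* was higher in every running rat than in every NC rat. *Per1* was lower in 3 of the 4 running rats than in any NC rat, *Nr1d1* was higher on average, and *Clock*, *Npas2*, *Cry2*, and *Per3* differed by less than 2 standard errors. With edgeR's quasi-likelihood test and Benjamini-Hochberg adjustment over all genes tested, 0 of the 10 members had an adjusted p value under 0.05, as did 0.00718% of all genes (1 gene), and the adjusted p values of the members ran from 0.385 to 0.913. At an unadjusted p value under 0.05 there were 5 of the 10 members, 2 higher and 3 lower, against 9.51% of all genes tested (5.44% higher and 4.08% lower). At an unadjusted p value under 0.01 there were 4 members, against 2.25% of all genes. The groups did not overlap in 3 members, against 6.06% of all genes, with 1 member higher (3.52% of all genes) and 2 lower (2.55%). The median absolute log2 fold change of the members was 0.58, against 0.15 for all genes tested. DESeq2, whose Wald test was adjusted likewise, called 1 member, *Per2*, against 0.671% of all genes. The members were chosen with earlier results of these data known, and they belong to a single loop measured in the same rats. These counts and shares are therefore a description and not a test of the set.

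**Figure D1:**
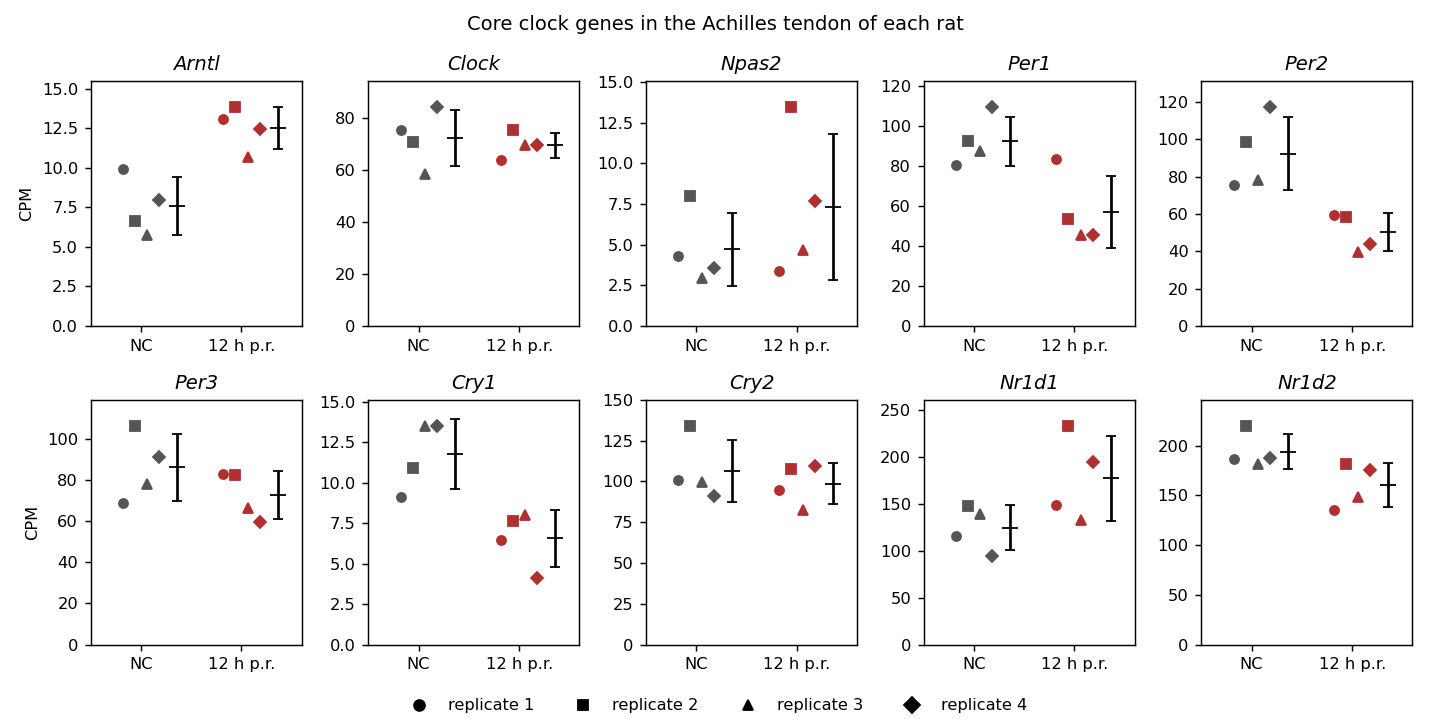
CPM of the 10 core clock genes (vertical axes, from 0) in each NC rat (gray) and each 12 hours p.r. rat (red), with the replicate as the symbol and the group mean and SD as the black bar (n = 4 rats). The points of the 2 groups do not overlap for *Arntl*, *Per2*, and *Cry1*, and 12 hours p.r. replicate 1 is the only running rat among the NC values of *Per1*.

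Of the activators, *Arntl* (ENSRNOG00000014448), the gene of BMAL1, was at 13.1, 13.8, 10.7, and 12.5 CPM in 12 hours p.r. replicates 1 to 4 and at 9.94, 6.62, 5.74, and 7.99 CPM in NC replicates 1 to 4. The lowest running rat lay above the highest NC rat by less than 1 CPM. The group means were 12.5 ± 1.33 CPM (SD, n = 4) and 7.57 ± 1.83 CPM (SD, n = 4), which gave a log2 ratio of 0.72 (standard error, SE, 0.19, adjusted p with edgeR = 0.422). These values rest on 54 to 133 reads per rat. The exact permutation test of the 8 rats gave a 2-sided p of 0.0286, the smallest that 4 rats against 4 allow. With 1 rat left out at a time the log2 fold change of *Arntl* stayed between 0.61 and 0.88.

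*Clock* (ENSRNOG00000002175), the partner of BMAL1, varied little between rats and little between groups. It was at 63.5, 75.2, 69.5, and 69.4 CPM in the running rats and at 75.3, 70.6, 58.5, and 83.9 CPM in the NC rats, whose range contains all the running rats. The log2 fold change was −0.05 (SE 0.12, adjusted p with edgeR = 0.913), and its sign turned to 0.026 without NC replicate 4. *Npas2* (ENSRNOG00000013408), which can stand in for *Clock*, was at 3.36, 13.4, 4.64, and 7.70 CPM after running and at 4.33, 7.97, 2.95, and 3.57 CPM in the NC group. Here 12 hours p.r. replicate 2 was the highest of all rats, and the rest of the running rats lay within the NC range. The log2 fold change of *Npas2* was 0.65 (SE 0.46, adjusted p with edgeR = 0.689) and moved to 0.18 without 12 hours p.r. replicate 2 and to 1.01 without NC replicate 2. Its coefficient of variation was 61.6% among the running rats and 47.9% among the NC rats, the highest of the 10 genes in either group, on 26 to 102 reads per rat.

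The Period genes encode the repressors that time the loop, and they differed from each other in how far the groups lay apart. *Per2* (ENSRNOG00000020254) was at 59.3, 58.6, 39.9, and 43.7 CPM in 12 hours p.r. replicates 1 to 4 and at 75.7, 98.6, 78.3, and 117 CPM in the NC replicates. No running rat reached the lowest NC rat. With means of 50.4 ± 10.03 CPM (SD, n = 4) and 92.5 ± 19.4 CPM (SD, n = 4), its log2 fold change was −0.88 (SE 0.18, adjusted p with edgeR = 0.385), the largest in size of the 10 members and 1.84-fold lower after running. Among the 13937 genes, *Per2* ranked 34 by p value. DESeq2's Wald test gave it an adjusted p of 0.00601 and a log2 fold change of −0.88. The 2-sided exact permutation p was 0.0286, and without 1 rat at a time the log2 fold change ran from −0.97 to −0.74.

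*Per1* (ENSRNOG00000007387), which light and glucocorticoids also induce quickly, was at 83.2, 53.6, 45.3, and 45.2 CPM after running and at 80.6, 92.2, 87.4, and 109 CPM in the NC group. Replicate 1 of the running group lay inside the NC range, and the other 3 running rats lay below it. The log2 fold change was −0.70 (SE 0.20, adjusted p with edgeR = 0.432; 2-sided exact permutation p = 0.0571). Without 12 hours p.r. replicate 1, which also stood apart in cartilage and bone markers, the log2 fold change of *Per1* was −0.94 and its edgeR adjusted p value 0.257. *Per3* (ENSRNOG00000018413), the Period gene that the loop can do without, was at 83.0, 82.6, 66.5, and 59.7 CPM and at 69.0, 107, 78.0, and 91.4 CPM in the respective groups. Its groups overlapped, with a log2 fold change of −0.24 (SE 0.16, adjusted p with edgeR = 0.671).

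The Cryptochromes are the second component of the repressor complex. *Cry1* (ENSRNOG00000006622) was at 6.47, 7.64, 7.97, and 4.13 CPM in the running rats and at 9.14, 10.9, 13.5, and 13.5 CPM in the NC rats. Every running rat was below every NC rat, the lowest being 12 hours p.r. replicate 4. Group means of 6.55 ± 1.74 CPM (SD, n = 4) and 11.8 ± 2.14 CPM (SD, n = 4) gave a log2 fold change of −0.85 (SE 0.23, adjusted p with edgeR = 0.432), on 44 to 179 reads per rat. The 2-sided exact permutation p for *Cry1* was 0.0286. *Cry2* (ENSRNOG00000007478), a paralog with a weaker rhythm in most tissues, was at 95.0, 108, 82.2, and 109 CPM and at 101, 134, 99.4, and 91.3 CPM. These ranges overlapped, with a log2 fold change of −0.11 (SE 0.14, adjusted p with edgeR = 0.841) that turned to 0.021 without NC replicate 2, the highest rat.

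The 2 REV-ERB genes lay in opposite directions. *Nr1d1* (ENSRNOG00000009329) was at 149, 233, 133, and 194 CPM in the running rats and at 116, 148, 139, and 94.5 CPM in the NC rats. In CPM, running replicates 1, 2, and 4 were above all NC rats, replicate 1 narrowly, at 148.7 CPM against 147.8 CPM in NC replicate 2. In the deposited FPKM, which scale the libraries in another way, the order of these 2 rats turned (57.6 and 57.8 FPKM). Running replicate 3, the rat with the highest skeletal muscle marker sum, lay within the NC range. The log2 fold change of *Nr1d1* was 0.51 (SE 0.20, adjusted p with edgeR = 0.489), and leaving out 12 hours p.r. replicate 2 gave 0.35 and leaving out 12 hours p.r. replicate 3 gave 0.63. In the RefSeq table *Nr1d1* overlaps *Thra*, the gene of a thyroid hormone receptor, and whether the reads were counted by strand was not stated, so reads from the stretch they share cannot be told apart. *Thra* was at 119 to 130 CPM in the running rats and at 87.1 to 120.4 CPM in the NC rats, a log2 fold change of 0.27 (SE 0.11, adjusted p with edgeR = 0.492). In that table, which is not the Ensembl annotation of the counts, *Cry1* overlaps an uncharacterized protein-coding gene. *Per2*, *Clock*, *Npas2*, and *Cry2* overlap long noncoding RNA genes there. Unlike *Thra*, none of these overlapping genes was matched to a counted gene, so whether their reads were counted on the members is not known.

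*Nr1d2* (ENSRNOG00000046912) was at 135, 181, 149, and 175 CPM after running and at 186, 219.9, 181, and 187 CPM in the NC group. The 2 groups met at 181 CPM, where 12 hours p.r. replicate 2 lay just above NC replicate 3. In the deposited FPKM, which use another scaling of the libraries, these 2 rats were at 39.1 FPKM each with the order turned, and the groups did not overlap. The log2 fold change of *Nr1d2* was −0.28 (SE 0.12, adjusted p with edgeR = 0.530; 2-sided exact permutation p = 0.0571).

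**Figure D2:**
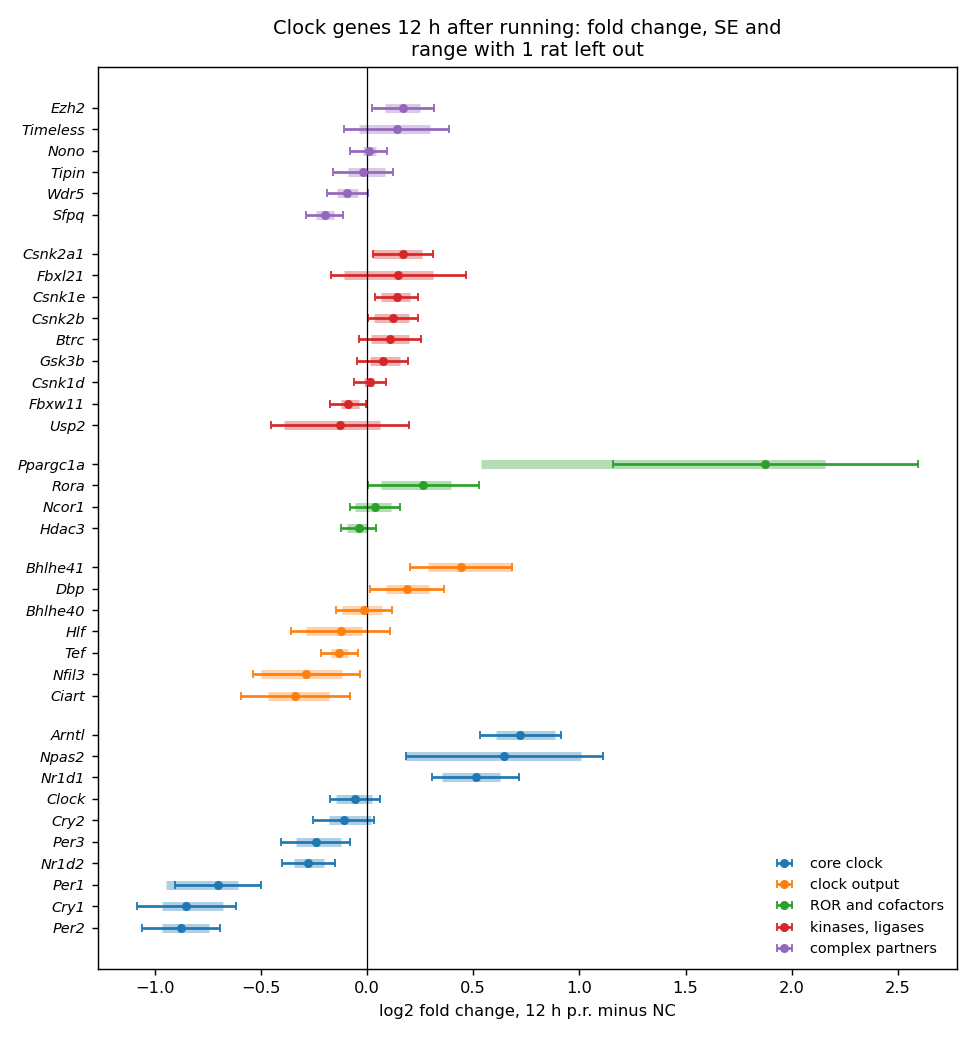
Log2 fold change, 12 hours p.r. minus NC (horizontal axis), of the 10 core clock genes and of 26 other tested genes of the clock pathway, with points and bars for the edgeR estimate and its standard error and the pale band for the range over the 8 fits without 1 rat (n = 4 rats per group, 3 in the group that lost a rat). The core genes run from −0.88 (*Per2*) to 0.72 (*Arntl*), and among the others *Ppargc1a* at 1.88 has a band that reaches down to 0.54.

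Ratios within a rat do not depend on how its library is scaled, and they were taken from FPKM, which adjust for gene length. They are given as a description with no test, since the pairs were picked with these values in view. The ratio of *Arntl* to *Per2* was 0.429, 0.459, 0.523, and 0.555 in 12 hours p.r. replicates 1 to 4 and 0.256, 0.131, 0.143, and 0.132 in NC replicates 1 to 4. NC replicate 1 came nearest to the running rats, and it was also the NC rat with the most *Arntl* and the least *Per2* and *Cry1*. The ratio of *Arntl* to *Cry1* lay between 1.32 and 2.97 after running and between 0.417 and 1.07 in the NC group, again with NC replicate 1 the highest of its group. For the REV-ERB pair, *Nr1d1* to *Nr1d2*, the ratio was 2.00, 2.32, 1.62, and 2.00 after running and 1.13, 1.22, 1.38, and 0.912 in the NC rats, without overlap although *Nr1d1* alone overlapped. The groups overlapped in 3 of the 7 ratios computed. The ratio of *Cry2* to *Cry1* was 7.59 to 19.5 after running and 4.97 to 9.04 in the NC group, and that of *Clock* to *Npas2* was 2.54 to 8.57 and 4.02 to 10.7. The ratio of *Per1* to *Per2* was 1.31 to 2.01 after running and 1.33 to 1.59 in the NC group.

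**Figure D3:**
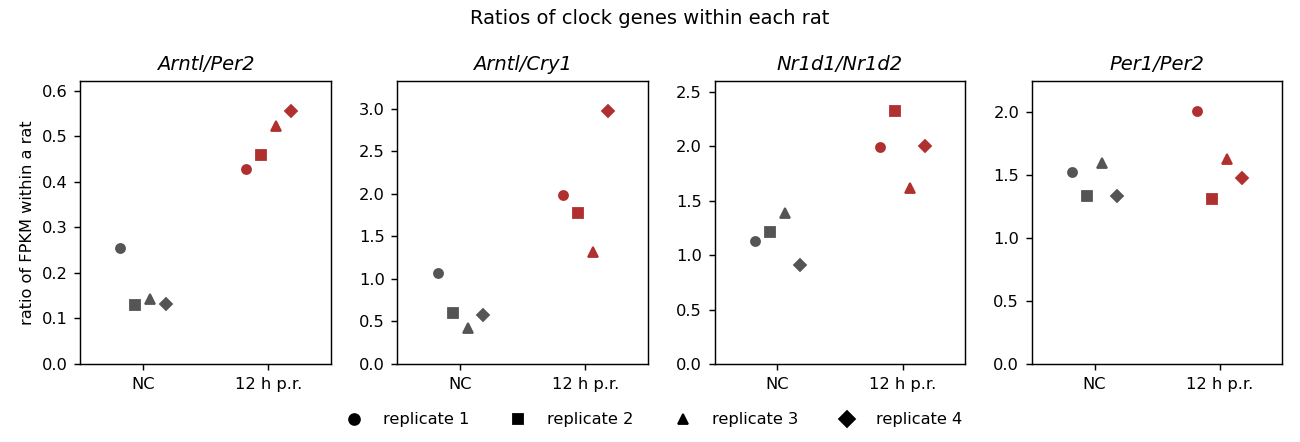
Ratio of FPKM of 2 clock genes within each rat (vertical axes, from 0) for NC (gray) and 12 hours p.r. rats (red), with the replicate as the symbol. The groups do not overlap for *Arntl* to *Per2*, *Arntl* to *Cry1*, and *Nr1d1* to *Nr1d2*, and they do for *Per1* to *Per2*, where 12 hours p.r. replicate 1 is highest at 2.01.

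By level per gene length, the REV-ERB genes led the clock genes in both groups. In the NC rats the mean FPKM were 48.6 ± 9.30 for *Nr1d1* (SD, n = 4), 41.9 ± 3.81 for *Nr1d2*, 26.7 ± 4.74 for *Cry2*, 22.7 ± 3.01 for *Per1*, and 15.9 ± 3.36 for *Per2*. The lower genes of the NC order were *Per3* at 13.3 ± 2.52 FPKM, *Clock* at 7.63 ± 1.13, *Cry1* at 4.02 ± 0.727, *Arntl* at 2.54 ± 0.617, and *Npas2* at 1.10 ± 0.525. Neighbors whose ranges over the 4 NC rats overlapped were *Nr1d1* and *Nr1d2*, *Cry2* and *Per1*, *Per1* and *Per2*, *Per2* and *Per3*, and *Cry1* and *Arntl*. Within a rat, *Per1* stood before *Per2* and *Per2* before *Per3* in all 4 NC rats, and the order of the other 3 pairs held in 3 of the 4.

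At 12 hours p.r. the order differed in 2 places. *Per3*, at 11.2 ± 1.77 FPKM (SD, n = 4), stood before *Per2*, at 8.64 ± 1.70 FPKM, in all 4 running rats, whereas *Per2* stood before *Per3* in all 4 NC rats. *Arntl*, at 4.18 ± 0.436 FPKM, stood before *Cry1*, at 2.23 ± 0.593 FPKM, in all 4 running rats, whereas *Cry1* stood before *Arntl* in 3 of the 4 NC rats. *Clock* was 1.76 ± 0.213 times as high as *Arntl* after running (SD, n = 4) and 3.07 ± 0.458 times as high in the NC group.

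**Figure D4:**
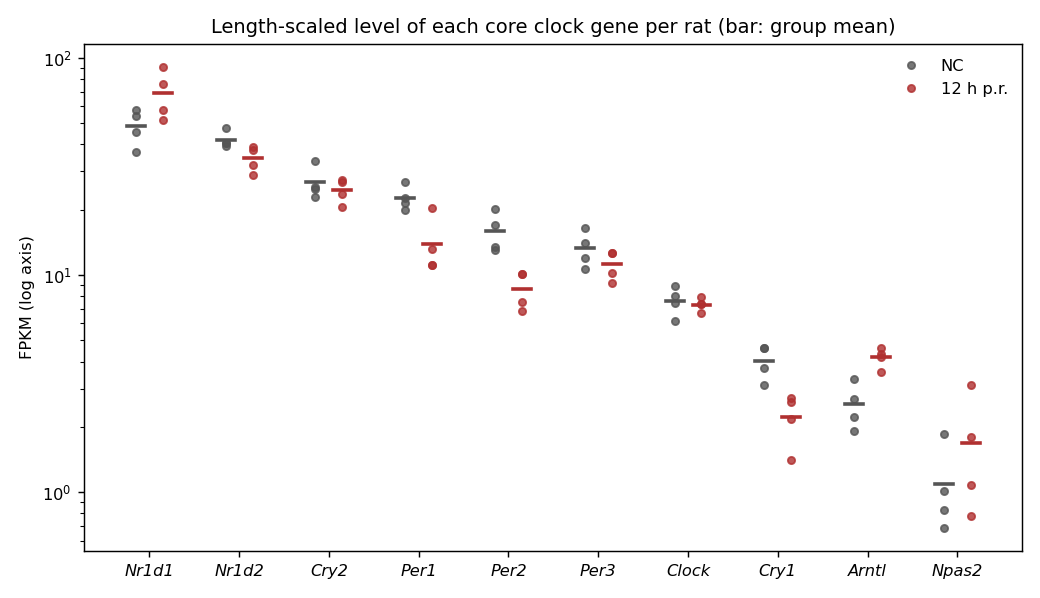
FPKM of the core clock genes in each rat (vertical log axis), ordered by the mean of the NC rats, with NC in gray, 12 hours p.r. in red, and the group mean as a bar (n = 4 rats). *Nr1d1* has the highest and *Npas2* the lowest mean in both groups, and the red points of *Per2* and *Cry1* lie below and those of *Arntl* above all gray points.

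Of the genes that the loop drives directly, 7 output genes were all tested. Among them 0 had an adjusted or an unadjusted p value under 0.05 with edgeR or an adjusted p value under 0.05 with DESeq2, the groups overlapped in all 7, and their median absolute log2 fold change was 0.19. Over all genes tested these were 9.51% at an unadjusted p value under 0.05, 6.06% without overlap, and a median of 0.15, and a count of 0 among 7 genes is near that background. *Dbp*, an activator at D-boxes and one of the most rhythmic transcripts in mammals, was at 190.0, 208, 156, and 236 CPM after running and at 153, 208, 196, and 136 CPM in the NC group. These ranges overlapped, with a log2 fold change of 0.19 (SE 0.17, adjusted p with edgeR = 0.760).

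Of the relatives of *Dbp*, *Tef* was at 146 to 157 CPM and at 150.2 to 178 CPM in the respective groups, a log2 fold change of −0.13 (SE 0.09), and *Hlf* was at 2.14 to 3.62 CPM and at 2.72 to 3.31 CPM, a log2 fold change of −0.12 (SE 0.23). *Nfil3*, the repressor at the same D-boxes, was at 6.76 to 14.8 CPM after running and at 9.14 to 15.9 CPM in the NC rats, a log2 fold change of −0.28 (SE 0.25). *Ciart*, a repressor of BMAL1 and CLOCK, was at 4.05 to 7.77 CPM and at 5.69 to 9.20 CPM, a log2 fold change of −0.34 (SE 0.26). The E-box repressor *Bhlhe40* was at 56.9 to 83.8 CPM and at 61.4 to 78.0 CPM, a log2 fold change of −0.01 (SE 0.13). Its relative *Bhlhe41* was at 10.1 to 16.1 CPM after running and at 6.54 to 13.1 CPM in the NC rats, a log2 fold change of 0.44 (SE 0.24, adjusted p with edgeR = 0.594). Without NC replicate 3, which holds the 13.1 CPM, this value was 0.69 (adjusted p with edgeR = 0.474).

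The ROR receptors activate *Arntl* where the REV-ERB receptors repress it. *Rora* was at 3.10 to 5.53 CPM after running and at 2.33 to 4.09 CPM in the NC rats, a log2 fold change of 0.27 (SE 0.26, adjusted p with edgeR = 0.775). *Rorb* had at most 2 reads in a rat, and *Arntl2*, a paralog of *Arntl*, had 2 to 17 reads per rat, so both were below the filter on low counts. Of the cofactors, *Ppargc1a*, a coactivator of the ROR receptors that is abundant in muscle, was the single gene of the wider pathway with an unadjusted p value under 0.05. That is 1 of 26 tested genes there, against 9.51% of all genes. The rat with the highest skeletal muscle marker sum, 12 hours p.r. replicate 3, held 11.1 CPM of *Ppargc1a*. The other running rats were at 1.502 to 1.58 CPM, against 0.858 to 1.43 CPM in the NC rats. Its log2 fold change was 1.88 (SE 0.72, adjusted p with edgeR = 0.478) and 0.54 without that rat. The corepressor genes *Ncor1* and *Hdac3*, through which the REV-ERB receptors act, differed by 0.04 (SE 0.12) and −0.04 (SE 0.08) on the log2 scale.

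The 9 genes reported here for the kinases, ubiquitin ligases, and related enzymes that set the life of PER and CRY proteins had log2 fold changes between −0.13 and 0.17, with 0 at an unadjusted p value under 0.05 and 0 at a DESeq2 adjusted p value under 0.05. Over all genes these shares were 9.51% and 0.671%, and a count of 0 among 9 genes is near them. Of the 9 genes, *Csnk1d*, which encodes a kinase of the PER proteins, was at 0.01 (SE 0.08). Of 7 genes for nuclear partners of the clock complexes, 6 were tested, with log2 fold changes between −0.20 and 0.17, and *Sirt1* was not analysed here. The lowest was *Sfpq*, an RNA-binding protein gene, at 94.6 to 110.4 CPM after running and at 111 to 128 CPM in the NC rats, without overlap (log2 fold change −0.20, SE 0.09, adjusted p with edgeR = 0.529). Over the 26 tested pathway genes outside the core, the median absolute log2 fold change was 0.13.

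The genes whose levels followed *Arntl* or *Nr1d1* most closely over the 8 rats were sought by Pearson's r of log2(CPM + 0.5) among 13837 other genes at a mean of at least 1 CPM. They are a description with no test, as they are the top of many genes, and the difference between the groups is part of the likeness. For *Arntl* these were *Erich1* (r = 0.967), the unnamed gene AABR07053500.1 (r = 0.965), *Zfp512* (r = 0.965), *Fam173a* (r = 0.943), and *Rflnb* (r = 0.942), with Spearman's rho between 0.810 and 0.976. *Rflnb*, which encodes a partner of filamin, was at 36.4 to 46.3 CPM after running and at 24.9 to 35.5 CPM in the NC rats. For *Nr1d1* they were *Rarg* (r = 0.964), *Mapk6* (r = 0.959), *Eva1b* (r = 0.957), *Leo1* (r = 0.948), and *Rinl* (r = 0.931). *Rarg*, the gene of a retinoic acid receptor, ordered the 8 rats exactly as *Nr1d1* did (rho = 1), at 74.9 to 126 CPM after running and at 63.6 to 85.0 CPM in the NC rats. None of these 10 genes was a core or wider clock gene of the lists used here.

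The marker lists of other cell types were set beside these results, and the summed level overlapped between the groups in each of the 6 lists. Of the 10 muscle markers tested, 8 had a positive log2 fold change. The other 2 had a negative one, *Myh7* (−1.77, SE 1.16) and *Mb* (−1.32, SE 0.77). The muscle sum was 2608 to 59957 CPM after running and 2437 to 11369 CPM in the NC group, with 0 of 10 markers free of overlap. Beside this and the counts of the lists below, 6.06% of all genes tested were free of overlap. For endothelium the sums were 1147 to 1388 CPM and 1180 to 1317 CPM with 1 of 6 markers (*Tie1*) free of overlap, and for tenocytes 20302 to 56532 CPM and 34603 to 51903 CPM with 1 of 10. The last was *Scx*, a transcription factor of tenocytes, at 45.2 to 60.6 CPM after running and at 20.3 to 43.9 CPM in the NC rats (log2 fold change 0.62, SE 0.22, adjusted p with edgeR = 0.452). At an unadjusted p value under 0.05 with edgeR, 3 of the 10 tenocyte markers were higher after running and 0 lower. The 3 were *Scx*, *Mkx* (log2 fold change 0.78), and *Thbs4* (0.56). Over the list 6 markers had a positive log2 fold change and 4 a negative one. The negative ones were *Tnmd*, *Fmod*, *Col1a1*, and *Tnc*, between −0.11 and −0.03. Of the 6 endothelial markers *Tie1* was higher (0.31) and *Emcn* lower (−0.40). Over all genes tested 5.44% were higher and 4.08% lower at that threshold, 9.51% in all. The part of these differences in the clock results was not tested. The leukocyte sum was 618 to 2542 CPM after running and 875 to 3786 CPM in the NC group with 0 of 6, the adipocyte sum 2693 to 6455 CPM and 3792 to 6592 CPM with 0 of 5, and the cartilage and bone sum 111 to 1294 CPM and 242 to 2943 CPM with 0 of 10. No marker found was at 0 in all 8 rats, and the cartilage marker *Matn1* had at most 1 read in a rat. With the muscle marker mean as a covariate, the log2 fold changes of *Arntl*, *Cry1*, *Per1*, and *Per2* were 0.71, −0.85, −0.73, and −0.90. Without the 3 rats rich in muscle, cartilage, or bone RNA they were 0.67, −0.94, −0.93, and −0.93. Other core genes moved further without these 3 rats: *Nr1d1* from 0.51 to 0.84, *Npas2* from 0.65 to 1.01, *Nr1d2* from −0.28 to −0.15, and *Cry2* from −0.11 to −0.001. *Per3* was then at −0.32 and *Clock* at −0.09. The core genes had 0 adjusted p values under 0.05 in either fit.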

How the data were processed

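The authors sequenced polyadenylated RNA of 8 right Achilles tendons with a stranded kit, aligned the reads to Rnor_6.0 with HISAT2 2.1.0, and deposited counts per Ensembl gene from featureCounts 1.6.3, per the labels and the paper's methods. The handling of reads that match several genes was not stated. The authors also deposited FPKM, counts scaled by gene length and by library with DESeq2 1.30.1, and a table of their own comparison (fold changes and p values), which was not used. Groups and replicate numbers were taken from the titles.

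Genes with low counts were removed by filterByExpr of edgeR 4.0.16, and 12 h p.r. was compared with NC by glmQLFit and glmQLFTest with TMM factors and Benjamini-Hochberg adjustment over 13937 genes. The standard error is the log2 fold change divided by the root of the F statistic. Permutation tests were exact, 2-sided, over the 70 ways to divide the rats, on log2(CPM + 0.5). The scripts were tested on simulated data. R 4.3.3, DESeq2 1.42.0, limma 3.58.1, and Python 3.11.15 were used. Alternatives were DESeq2, other factors and filters, limma on FPKM, the replicate number as a block, a muscle score as covariate, and fits without rats.

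The members and lists were chosen with earlier results of these data known. Named genes were the members, the 7 output genes, *Rora*, other pathway genes at an unadjusted p value under 0.05, and the 5 genes most like *Arntl* and *Nr1d1* each. Any other gene was named after its values were seen, and 2 genes of the pathway lists are not reported here. The total counts of 7350509 to 12951397 per rat limit the precision of genes at a few CPM, and p values measure the spread between rats. Same-numbered rats deviated together by r of −0.20 to 0.13 over genes, and rats of different numbers by r of −0.31 to 0.34. These values gave no sign that the numbers pair the rats, but they cannot exclude a pairing or a shared batch.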

Additional observations from a re-analysis of the deposited data

Results flagged for a closer look

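Among 86 groups of 4 values (log2 CPM of each tested clock pathway gene, the mean of each marker list, and total counts), 4 held a rat far from the other 3 of its group by Dixon's criterion, where chance gives about 4.3. None was a core clock gene. *Ppargc1a* was at a log2 CPM of 3.53 in 12 h p.r. replicate 3, against 1.00 to 1.06 in the other running rats. *Ezh2* was at 3.83 in NC replicate 2, while the rest of its group lay at 3.63 to 3.64. The leukocyte marker mean was 5.62 in NC replicate 2, against 6.91 to 7.03, and the cartilage and bone marker mean was 6.21 in NC replicate 3, against 2.06 to 2.5005. The part of these rats in the clock results was not tested beyond the fits without them.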

How the results depend on the processing

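The number of core clock genes with an adjusted p value under 0.05 was 0 with edgeR and 1 with DESeq2 (*Per2*), and it was 0 under the other 17 alternatives. When a 2-fold change was also required it was 0 under all 18. The log2 fold changes of *Arntl*, *Cry1*, *Per1*, and *Per2* kept their direction in all 72 values and had an unadjusted p value under 0.05 in all 72, while that of *Nr1d1* did in 13 of 18. Without 1 rat at a time, the log2 fold change of *Cry2* ran from −0.18 to 0.021 and that of *Clock* from −0.15 to 0.026, the sign turning without NC replicate 2 and without NC replicate 4, and the other 178 of 180 gene values kept it. The number of core genes higher at an unadjusted p value under 0.05 was 2, and 1 with limma on log2(FPKM + 0.1). Without 1 rat at a time it ran from 1 to 2 (1 without 12 h p.r. replicate 2, without 12 h p.r. replicate 4, without NC replicate 1, or without NC replicate 4), as *Nr1d1* then missed the threshold. It was 3 without the 3 rats rich in muscle, cartilage, or bone RNA, as *Npas2* was added. The number lower was 3, and it was 4 with DESeq2 and relative log expression factors and 3 to 4 without 1 rat at a time, as *Nr1d2* was added. Of the other pathway genes, 1 was higher (*Ppargc1a*) and 0 lower at an unadjusted p value under 0.05. The number higher was 2 with no filter beyond 1 count (*Arntl2* added), 0 with limma on either FPKM scale, 2 without the 3 rats rich in muscle, cartilage, or bone RNA (*Bhlhe41* and *Arntl2*, without *Ppargc1a*), and 0 to 2 without 1 rat at a time, being 0 without 12 h p.r. replicate 3 or NC replicate 1, 2, or 4 and 2 without NC replicate 3. The number lower was 1 with DESeq2, with relative log expression factors, and with the muscle score as covariate (*Sfpq* in each), 1 without the 3 rats (*Nfil3*), and 0 to 1 without 1 rat at a time (1 without 12 h p.r. replicate 2). The fit without the 3 rats and the use of FPKM for overlap, which added *Nr1d2* to the genes lower without overlap, were chosen after seeing the data. With the replicate number as a block, 0 core genes had an adjusted p value under 0.05, 2 were higher and 3 lower at an unadjusted one, and no call changed. Only 2 of 8 rats correlated best with their own number. *Arntl*, *Cry1*, and *Npas2*, at 26 to 179 reads per rat, are the core genes most limited by depth.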
